A study of Mus musculus with 12 samples.

Results

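Alveolar macrophages of wild-type mice that had been cultured for 24 h with 50 nM vitamin D3 were compared with wild-type alveolar macrophages taken fresh from the lung. The comparison rests on 6 of the 12 RNA-seq libraries of the series: 2 of treated culture, 2 of fresh cells from mice aged 10 weeks and 2 of fresh cells from mice aged 4 weeks. The members were chosen by the library titles of the deposited count table. A further 2 libraries, of wild-type cells cultured for the same time without vitamin D3, give the level in such culture and are called untreated culture. The other 4 libraries, fresh cells of mice labelled as vitamin D receptor knockouts at both ages, entered the statistical fit and are not described. All cells were collected by lung lavage, and the cultured ones were kept in complete RPMI medium. The age of the mice that gave the cultured cells is not in the labels, nor is whether cells of several mice were pooled. Whether libraries of a group come from separate mice is not stated either, and among the groups described sex-linked genes show it for the 10-week pair alone. P-values thus reflect library-to-library spread, some of which may be technical. Treated and fresh cells differ in culture as well as in vitamin D3, and these cannot be told apart in that comparison. For this reason the untreated culture is given beside it.

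Alveolar macrophages live in the air spaces, where they clear particles, microbes and surfactant lipid. Their identity depends on GM-CSF, TGF-beta and the transcription factor PPARG, and cells removed from the lung are known to lose part of it. Vitamin D3, in its active form, binds the nuclear vitamin D receptor (VDR), which pairs with a retinoid X receptor and switches on genes such as Cyp24a1, whose product degrades vitamin D. The labels do not say which form of vitamin D3 was used.

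Total counts of the 8 libraries described ranged from 11630426 to 23233674, and 12748 of 23413 genes had enough counts to be tested. Levels are given in CPM, counts relative to the library total, after TMM scaling, which corrects for differences in RNA composition. In these libraries 1 count was worth 0.0483 to 0.0810 CPM. The 10 most abundant genes took 14.1% to 15.3% of the counts in the 4 cultured libraries and 8.29% to 11.6% in the 4 fresh ones. Xist, which is transcribed from an inactivated X chromosome, stood at 800.3 CPM in 10-week replicate 2 and at no more than 0.689 CPM in the other 5 treated and fresh libraries. Ddx3y, a Y chromosome gene, was at 0.475 CPM in 10-week replicate 2 and at 74.3 to 80.6 CPM in the other 5. By the genotype label the 10-week pair thus differs in sex and comes from separate mice. Sex and other differences within that pair cannot be told apart. The description code of 10-week replicate 2, like that of 1 other library, goes against its genotype label. The genotype label was used, and the exchange of that pair was tried.

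The labelled cell type was checked against 13 markers of alveolar macrophages, all of which were expressed in the fresh cells. In the treated cells Siglec5 (the symbol in the table for the gene of Siglec-F), Pparg and Mrc1, the mannose receptor, lay within 2-fold of fresh cells of both ages by their 95% intervals. Pparg was at 185.4 and 194.2 CPM at 10 weeks, 174.1 and 169.8 CPM at 4 weeks, and 193.2 and 139.7 CPM with vitamin D3, so these groups overlapped. Scaled by library totals alone, its log2 difference over both ages was -0.41 (edgeR adjusted p = 0.0116). Without vitamin D3 replicate 1 the difference was -0.37, and Pparg stayed held in both fits. The scavenger receptor gene Marco was at 330.1 to 455 CPM in fresh cells and at 197.6 and 337.8 CPM with vitamin D3, and passed the test against neither age. Itgax (CD11c) and Ctsk, the gene of cathepsin K, were above both ages. Car4, Fabp1, Chi3l3, Ear1, Ear2 and Krt79 were below both ages, and Fabp4 was above them.

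Treated cells differed widely from fresh cells of both ages, in both directions about equally. Against 10 weeks 6502 genes (51.0%) passed the test of edgeR at an adjusted p under 0.05, with 3240 (25.4%) higher and 3262 (25.6%) lower. Against 4 weeks 5982 (46.9%) passed, with 3024 (23.7%) higher and 2958 (23.2%) lower. A gene was counted as above both ages when it was higher past the threshold against each age and both treated libraries lay over all 4 fresh ones. Over both ages together 6829 genes (53.6%) passed, 3486 (27.3%) higher and 3343 (26.2%) lower. The class above both ages had 2551 genes (20.0%), and its counterpart below both ages 2459 (19.3%). By interval, 5715 genes (44.8%) were held within 2-fold of both ages. These classes overlap, since a small change can pass the test: 787 held genes were also above and 485 also below. Scaled by library totals alone, 1410 genes were above and 3951 below, the median of all genes moved from -0.02 to -0.31 on the log2 scale, and the share of higher among called genes fell from 51.0% to 27.7%. Treated and 10-week cells were both present in each of the 2 series of title numbers, and 6501 of the 6502 called genes had the same sign within both. The calls came from the same libraries, so this describes them and supports nothing.

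By the same rule untreated culture was above both ages for 2027 genes (15.9%) and below for 1955 (15.3%). Both cultures were set against the same fresh libraries, so these counts are given side by side and not compared. Between the cultures themselves 1356 genes (10.6%) passed, 638 (5.0%) higher and 718 (5.63%) lower with vitamin D3. In 6 genes (0.0471%) treated cells were above and untreated cells below both ages, and in 3 (0.0235%) the reverse held.

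Vdr and its classical target Cyp24a1 were both higher in treated than in untreated culture. Vdr was at 79.6 and 126.9 CPM in fresh cells at 10 weeks, 56.5 and 57.7 CPM at 4 weeks, 7.82 and 7.61 CPM in untreated culture and 72.1 and 42.4 CPM with vitamin D3. The treated libraries overlapped those of 4 weeks, lay under those of 10 weeks and lay over the untreated ones. Against untreated culture Vdr rose 7.43-fold (edgeR adjusted p = 0.000433). Against 10 weeks its log2 fold change was -0.84 ± 0.31 (SE; edgeR adjusted p = 0.0419), and against 4 weeks 0.01 ± 0.31 (edgeR adjusted p = 0.986). The call against 10 weeks was lost with DESeq2 (adjusted p = 0.0707) and with the exchange of the pair in conflict (edgeR adjusted p = 0.277). It was also lost without vitamin D3 replicate 3, 10-week replicate 2, 4-week replicate 1 or 2, or untreated replicate 2 (edgeR adjusted p = 0.27, 0.32, 0.0507, 0.0554 and 0.0501).

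Cyp24a1 had 0 counts in all 4 fresh libraries and 484.8 and 215.6 CPM with vitamin D3. It was at least 8470-fold higher than in fresh cells, taking 3 counts over the fresh group as the limit that a count of 0 allows. Untreated culture held 0.383 and 0.243 CPM, so both cultures had some reads and only the treated one a high level.

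**Figure D1:**
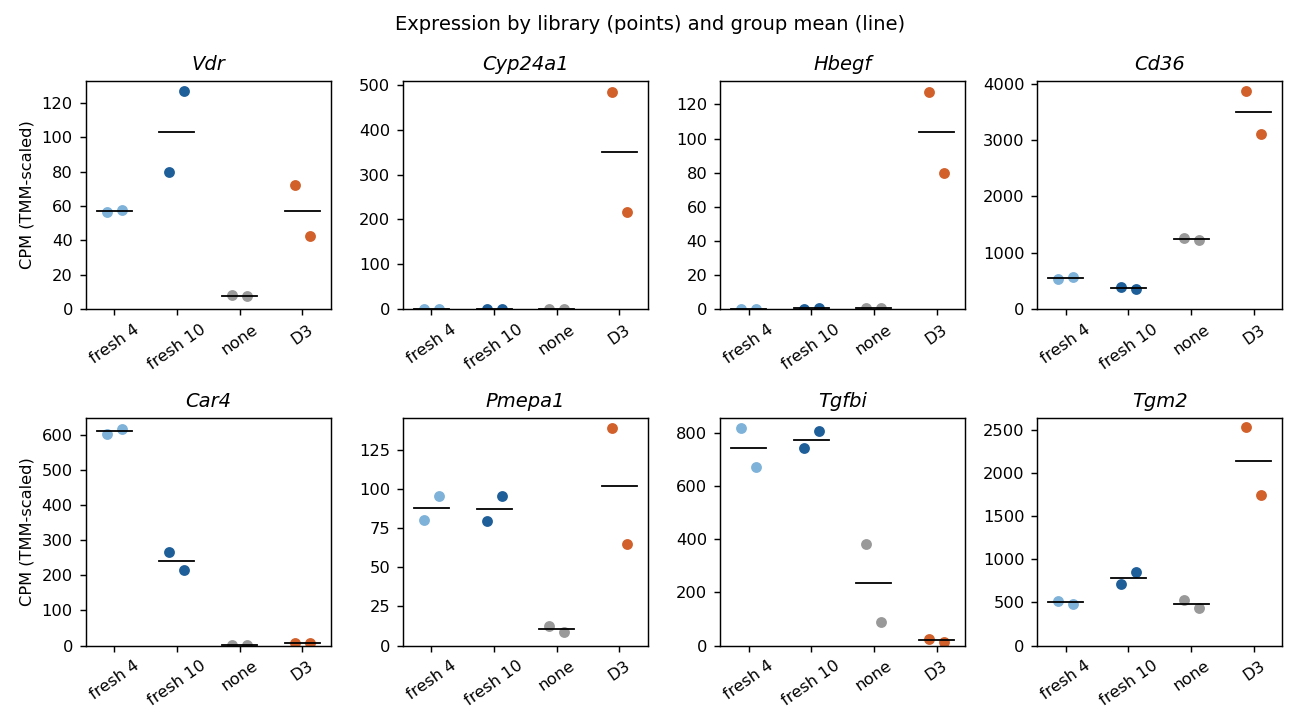
CPM of 8 genes in each library (points) with the mean of each group (line), on linear axes from 0, for fresh cells at 4 and 10 weeks, untreated culture (none) and vitamin D3 culture (D3). Cyp24a1, Hbegf, Cd36 and Tgm2 were highest in both vitamin D3 libraries, and Vdr and Pmepa1 were low in untreated culture alone. Car4 and Tgfbi were under fresh cells in both cultures, Car4 lowest in untreated culture and Tgfbi lowest with vitamin D3.

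Of 14 tested genes known elsewhere as VDR targets, 4 were above both ages (Cyp24a1, Hif1a, Slc37a2 and Spp1), 5 were below and 1 was held. Of all genes tested 20.0% were above, 19.3% below and 44.8% held. Hif1a, the oxygen-sensing transcription factor, was at 519.6 and 385.7 CPM with vitamin D3 and at 89.9 to 104.3 CPM in the 4 fresh libraries, a 4.66-fold rise (edgeR adjusted p = 1.88e-08 over both ages). Slc37a2, a sugar-phosphate transporter gene, was at 233.4 and 220.4 CPM against 13.5 to 37.5 CPM. In untreated culture it was already at 167.5 and 173.4 CPM, and the cultures did not differ by the test. The genes below were Cd14, Thbd, G0s2, Cdkn1a and Serpinb1a. Serpinb1a, an inhibitor of neutrophil proteases, fell 10.4-fold (edgeR adjusted p = 3.72e-09 over both ages). Tested members of the receptor complex and of the enzymes that make or degrade vitamin D numbered 11. Of these, 0 were above, 6 below and 4 held, against the same shares of all genes. Rxra, the partner of VDR, was at 211.7 and 216.4 CPM with vitamin D3 and at 374.6 to 550.7 CPM in fresh cells.

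Genes of alveolar macrophage identity went in both directions. Of 29 tested, 9 were above both ages, 12 were below and 8 were held, against 20.0%, 19.3% and 44.8% of all genes, and their median log2 difference was -0.29. Without vitamin D3 replicate 3 or without 4-week replicate 1, 5 were held. Car4, a carbonic anhydrase of the cell surface, was at 265.5 and 216.1 CPM at 10 weeks, 602.2 and 617.5 CPM at 4 weeks, 0.657 and 0.972 CPM in untreated culture and 7.18 and 7.87 CPM with vitamin D3. Treated cells thus held 9.44 times the untreated level (edgeR adjusted p = 3.17e-05) and remained 51-fold under fresh cells. Cidec, a lipid droplet protein gene, was at 9.54 and 13.7 CPM against 374.8 to 425.8 CPM in fresh cells, and was lower than in untreated culture (1.96-fold; edgeR adjusted p = 0.0123). Krt79 was at 53.6 and 45 CPM against 473.3 to 678 CPM. Ctsk was at 4629 and 4982 CPM with vitamin D3, 4805 and 5169 CPM without it, and 299.9 to 472.6 CPM in fresh cells. Fabp4, a fatty acid carrier gene, was at 187.9 and 346.5 CPM against 57.3 to 73.4 CPM fresh, and untreated culture was higher still at 599.5 and 977.8 CPM. Copies of Ear1 and Ear2 are close to each other in sequence, so their counts are uncertain.

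**Figure D2:**
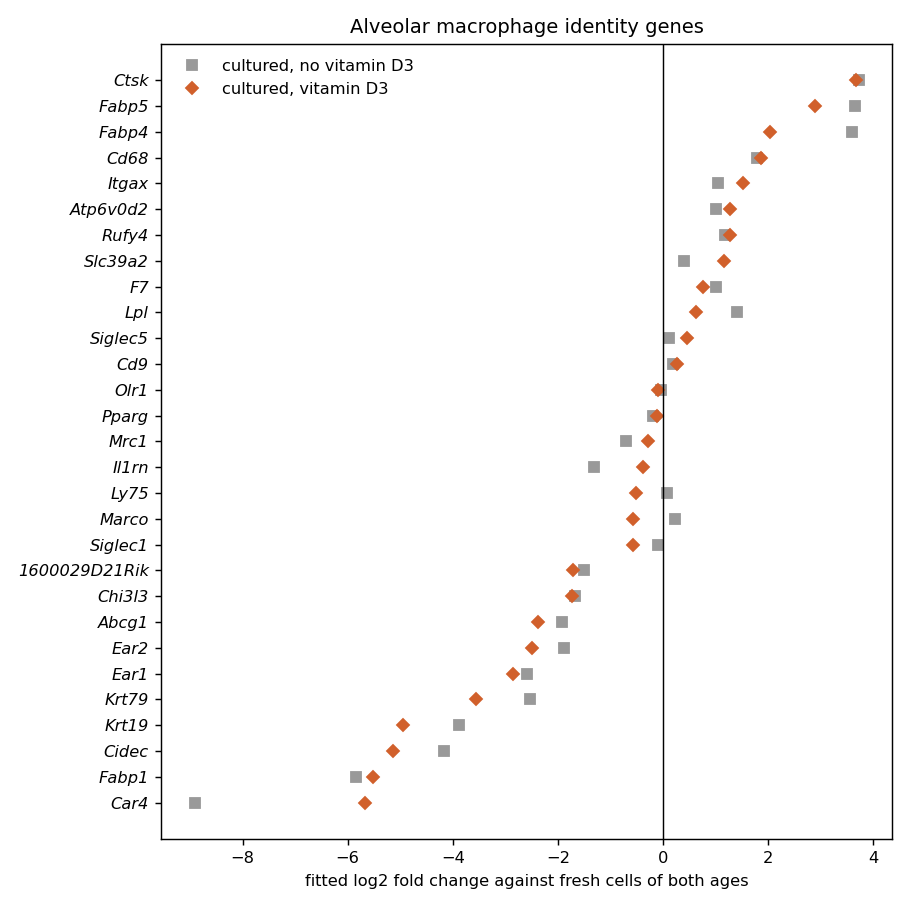
Fitted log2 fold change of 29 alveolar macrophage identity genes against fresh cells of both ages, for untreated (squares) and vitamin D3 culture (diamonds). Genes lie on both sides of 0, and Car4 shows a wide gap between the cultures, at 9.44 times the untreated level with vitamin D3.

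The receptor for GM-CSF, the cytokine that maintains these cells, was held. Csf2ra and Csf2rb, the chains of the GM-CSF receptor, were at 686.3 to 693.1 and 1087 to 1089 CPM with vitamin D3 and at 648.3 to 704.5 and 845.1 to 1118 CPM in fresh cells. Csf2ra has no direction, because under library totals alone its log2 difference was -0.27 and not 0.02. Of 17 colony-stimulating factor and TGF-beta pathway genes 7 were above, 3 below and 5 held, against 20.0%, 19.3% and 44.8% of all genes. Under library totals alone 5 of the 17 were below and 3 held. Csf3r, the G-CSF receptor gene, was at 7.38 and 8.5 CPM against 51.7 to 57.7 CPM.

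Several growth factors were far above fresh cells of both ages. Of 17 tested, 7 were above both ages, 2 below and 1 held, against 20.0%, 19.3% and 44.8% of all genes. Their median log2 difference was 0.78, against -0.02 for all genes. Hbegf, an epidermal growth factor family ligand, was at 127.4 and 79.9 CPM with vitamin D3, 0 to 0.554 CPM in the 4 fresh libraries and 0.405 and 0.438 CPM in untreated culture. Both treated libraries lay far over all others. Against 4 weeks, where 3 counts were seen, the ratio was 1260 (exact 95% interval 430 to 6110, counting error only). Against untreated culture the rise was 240.4-fold (edgeR adjusted p = 4.03e-06). Vegfa, which drives vessel growth, was at 41.1 and 43.5 CPM against 1.3 to 2.45 CPM fresh and 0.492 and 1.3 CPM untreated. Vegfa was thus low in every library but the treated pair. Gdf15, a stress-induced TGF-beta family member, was at 600.9 and 600.1 CPM against 24.6 to 67.6 CPM fresh and 41.2 and 80.9 CPM untreated. Lif and Pdgfa, cytokine and platelet-derived growth factor genes chosen after their values were seen, were at 32.8 to 37.8 CPM and 12.8 to 15.9 CPM with vitamin D3. In fresh cells Lif was at 3.4 to 5.54 CPM and Pdgfa at 0 to 0.559 CPM. For all 5 of these genes the treated libraries overlapped neither the fresh nor the untreated ones. Pdgfc went the other way, with 4.23 and 5.13 CPM against 46.3 to 52.3 CPM fresh and 20.2 and 18.5 CPM untreated.

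The 456 genes (3.58%) above both ages and also above untreated culture hold further genes with little or no expression in fresh cells. Met, the receptor of hepatocyte growth factor, was at 206.3 and 185.7 CPM against 0.689 to 2.38 CPM fresh and 57.1 and 43.2 CPM untreated. Acpp, an acid phosphatase gene, was at 157.5 and 123.7 CPM against 0.158 to 0.908 CPM fresh and 5.91 and 4.54 CPM untreated. Met and Acpp were close to absent in fresh cells and intermediate in untreated culture. Pla2g7, which inactivates platelet-activating factor, was at 644 and 433.1 CPM against 3.86 to 8.38 CPM fresh and 192.7 and 98.3 CPM untreated. The growth arrest genes Gadd45a and Plk2 were at 95.2 and 80.9 CPM and at 431.4 and 453.8 CPM with vitamin D3, against 1.84 to 2.26 and 2.93 to 6.57 CPM fresh. All 3 showed the same order, fresh below untreated below treated. Tgm2, a transglutaminase gene, was at 2533 and 1749 CPM against 486.3 to 852.1 CPM fresh and 523.6 and 436.3 CPM untreated. Cd36, a lipid scavenger receptor gene, was at 3873 and 3110 CPM against 345.2 to 564.3 CPM fresh and 1261 and 1228 CPM untreated. Tgm2 thus stood near its fresh level without vitamin D3, while Cd36 was already raised. Tenm4, Nxph3, Mdfi, Gsta2, Foxf2 and Dusp14 were between 8.92 and 33.6 CPM with vitamin D3, and each was at no more than 1.19 CPM in any fresh library. Gsta2 has near-identical relatives, so its counts are uncertain. The count of 456 fell to 240 without vitamin D3 replicate 1 and to 290 without untreated replicate 1.

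The 450 genes (3.53%) below both ages and untreated culture include secreted and surface proteins of macrophages. Tgfbi, an extracellular matrix protein gene, was at 743.8 and 805.1 CPM at 10 weeks, 816.2 and 672 CPM at 4 weeks, 383.2 and 87.9 CPM in untreated culture and 26 and 12.1 CPM with vitamin D3. The treated libraries lay under all others, and the untreated pair was spread widely. Gpr34, a receptor for lysophospholipids, was at 6.71 to 9.22 CPM fresh, 12.4 and 10.4 CPM untreated, and 0.295 and 0.984 CPM with vitamin D3. Gpr34 was thus higher in untreated than in treated culture without overlap. Alox5, which begins leukotriene synthesis, was at 28.3 and 34.9 CPM against 336.2 to 405.1 CPM fresh and 114.5 and 84.9 CPM untreated. Fcgr1, the high-affinity IgG receptor gene, was at 1.87 and 4.57 CPM against 52.3 to 60.8 CPM fresh and 12.3 and 13.5 CPM untreated. The lipid transfer gene Pltp was at 17.5 and 18.6 CPM against 179.3 to 247.2 CPM fresh and 70 and 44.6 CPM untreated. Alox5, Fcgr1 and Pltp were lowered in untreated culture and lower again with vitamin D3. The count of 450 fell to 168 without vitamin D3 replicate 1 and to 290 without untreated replicate 1.

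Few of the levels altered in untreated culture came back with vitamin D3. A gene was counted as regained when untreated culture was altered against both ages and vitamin D3 differed from untreated culture toward the fresh level. Treated cells also had to pass the test against neither age, which does not show a level equal to the fresh one. Of the genes named below as regained, Coro6, Rfx2, Cfb, Anxa3, Jund, Marveld1 and Pmepa1 were also held by interval, and the others were not. Of 1955 genes below both ages in untreated culture, 49 (2.51%, and 0.384% of all tested) were regained upward. Of 2027 above, 65 (3.21%, and 0.510% of all tested) were regained downward. A further 31 (0.243%) and 67 (0.526%) moved toward the fresh level and stayed past the threshold against both ages. Another 36 and 29 were called toward the fresh level and met neither rule. Together 116 of the 1955 (5.93%) and 161 of the 2027 (7.94%) were called toward it. In the opposite sense, treated cells were lower still than untreated for 215 of the 1955 (11%) and higher still for 173 of the 2027 (8.53%). Of all genes 5.0% were called higher and 5.63% lower with vitamin D3 than in untreated culture. The cultures did not differ by the test in the remaining 1624 and 1693 genes. The median log2 difference of the 1955 from fresh cells was -1.14 in untreated and -1.18 in treated culture, and that of the 2027 was 0.79 and 0.82. The 114 regained genes were 47 without vitamin D3 replicate 1 and 71 without untreated replicate 1.

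Pmepa1, a membrane protein gene that limits TGF-beta signalling, was at 79.5 to 95.6 CPM in fresh cells, 12.3 and 8.99 CPM in untreated culture and 139.2 and 65.1 CPM with vitamin D3. The treated pair lay on either side of the fresh libraries. Coro6, of the actin-binding coronins, was at 69.6 to 97.8 CPM fresh, 15.8 and 10.4 CPM untreated and 118.3 and 63.9 CPM treated. Coro6 spanned its fresh range in the same way. Cfp, the gene of properdin, which stabilises the complement convertase, was at 110.9 to 150.9 CPM fresh, 22.9 and 15.1 CPM untreated and 126.2 and 69.9 CPM treated. The cytokine gene Osm was at 23.3 to 45.4 CPM fresh, 4.54 and 5.34 CPM untreated and 25.6 and 18.1 CPM treated. Cfp and Osm each had 1 treated library within the fresh range and 1 below it. Syn1, Rfx2, Per2 and Marveld1 complete the 8 genes taken by largest difference among those regained upward.

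Downward, Cfb, the gene of complement factor B, was at 100 to 143.4 CPM fresh, 399 and 290.3 CPM untreated and 148.4 and 113.6 CPM with vitamin D3. Anxa3, an annexin gene, was at 34 to 45.9 CPM fresh, 182.9 and 123.8 CPM untreated and 49.6 and 53 CPM treated. Ryr1, a calcium release channel gene, was at 4.82 to 8.71 CPM fresh, 19.6 and 19.8 CPM untreated and 5.41 and 9.48 CPM treated. The treated libraries of these 3 genes lay within or close to the fresh range and under both untreated ones. Of the 16 genes taken by the naming rule as regained in either direction, 3 (Coro6, Rfx2 and Cfb) kept that class in all 15 alternative fits that include untreated culture. Ptpro and Cxcl14 lost it in 12 and 10 of them, Qpct in 6, Anxa3, Cfp and Per2 in 4 each, Osm, Syn1 and Marveld1 in 3 each, Ryr1 in 2, and Pmepa1 and Cd200r2 in 1 each.

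Partial return was seen in genes named here after their values were seen. Ccl6, a chemokine gene, was at 3166 to 4150 CPM fresh, 412 and 532.9 CPM untreated and 2516 and 1880 CPM with vitamin D3. Phlda1 was at 79.4 to 94.7 CPM fresh, 5.8 and 4.05 CPM untreated and 26.4 and 17.7 CPM treated. The integrin gene Itgam (CD11b) was at 4.73 to 7.69 CPM fresh, 118.4 and 53.4 CPM untreated and 18.6 and 26.9 CPM treated. In all 3 genes the treated libraries lay between the untreated and the fresh ones.

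**Figure D3:**
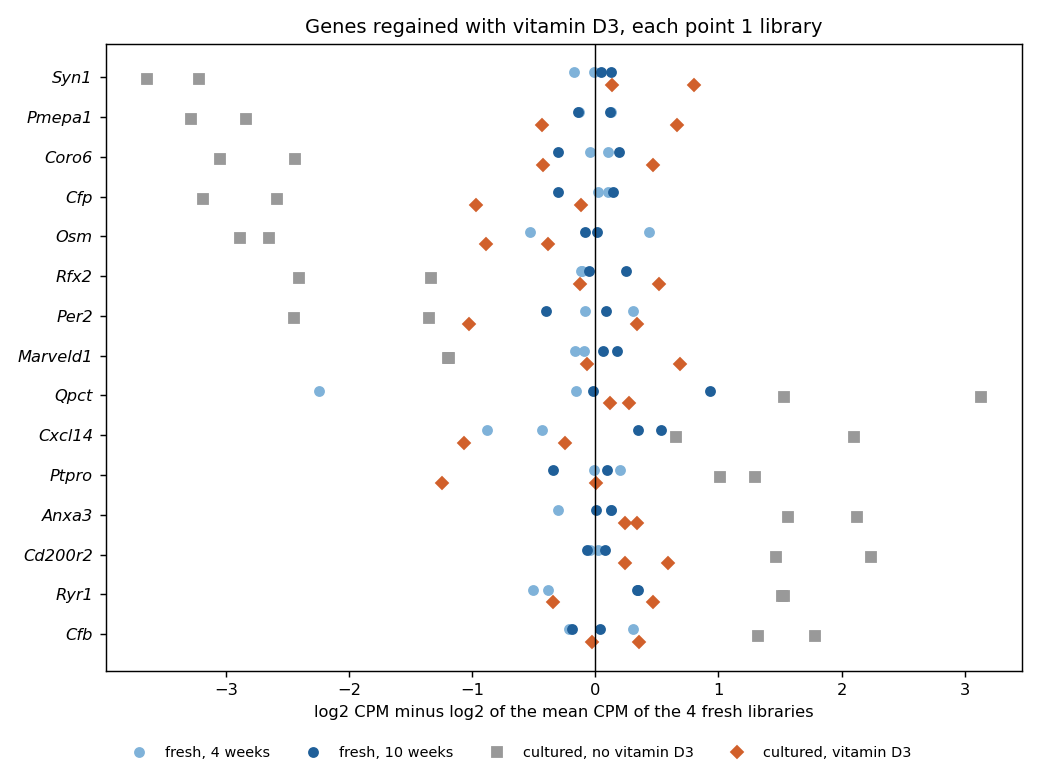
Log2 CPM of 15 genes named as regained, relative to the mean of the 4 fresh libraries (line at 0), with each point 1 library. Squares of untreated culture lie to the left for the upper 8 genes and to the right for the lower 7, and the diamonds of vitamin D3 culture lie among or near the fresh points.

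Antioxidant, sterol and lysosome genes were mostly above both ages, against 20.0% of all genes. Of 23 NRF2 antioxidant genes, which NRF2 switches on under oxidative stress, 21 were above and 0 below, with a median log2 difference of 1.79. Fth1 and Ftl1, the ferritin chains that store iron, were at 25570 to 26330 and 28280 to 30160 CPM with vitamin D3, against 5204 to 5675 and 6652 to 7662 CPM fresh. Both ferritin chains were thus far over fresh cells. Slc11a1, a metal transporter of phagosomes, was at 641.4 and 632.1 CPM against 4.49 to 11.7 CPM. Of 23 cholesterol synthesis genes 20 were above and 0 below (median 1.33), and of 26 lysosome genes 20 were above and 1 below (median 1.18). Cyp51, a lanosterol demethylase gene, was 3.36-fold higher and Insig1, which restrains sterol synthesis, 3.84-fold. Ctsb and Ctsd, lysosomal protease genes, rose 8.71-fold and 3.58-fold (edgeR adjusted p = 1.36e-09 and 6.96e-08 over both ages). Of 25 glycolysis and hypoxia genes 15 were above and 2 below (median 1.29), with Ldha at 1977 and 2675 CPM against 383.2 to 452.9 CPM fresh and 700.2 and 1111 CPM untreated. By the same rule untreated culture had 21, 21, 22 and 13 genes of these 4 lists above both ages, from the same fresh libraries. Of all genes 15.9% were above both ages in untreated culture. Without vitamin D3 replicate 3 the median of the glycolysis list fell to 0.64. Scaled by library totals alone, 16, 17, 18 and 13 genes of these 4 lists were above and 0, 0, 2 and 2 below.

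Promoters of 3 of these lists and of the 456 genes were searched for known elements, chosen after the list counts had been seen. The sequences are the 250 bases before the start in RefSeq annotation of GRCm38.p6, on both strands, and are shown as examples, with matches in capitals. A match is not a shown binding site. The E-box TCACGTGA, a palindrome that is part of the CLEAR element of lysosome genes, was found in 4 of 19 lysosome genes with a promoter (21.1%), against 1.74% of 9456 tested genes and 0.785% of all promoters. All 4 (Atp6v1a, Ctsa, Ctsd and Gla) were above both ages, as were 20 of all 26 lysosome genes tested. The antioxidant element TGACNNNGC was found in 6 of 19 NRF2 genes (31.6%), against 14.2% of tested genes and 10.2% of promoters. Of the 6, 5 were above both ages, as were 21 of all 23 NRF2 genes tested. A link of either motif to the rise was not tested. With the 50 bases after the start included, the antioxidant element was found in 9 of 19, against 17.4% of tested genes. The sterol element TCACNCCAC was found in 1 of 15 cholesterol synthesis genes (6.67%), against 1.23% of tested genes and 1.05% of promoters. The DR3 element, at which VDR binds, was searched under 3 definitions of its half-site. Cyp24a1 has no entry in the promoter table and is not among the genes searched. The classical consensus was found in 1 of 351 promoters of the 456 genes (0.285%; 0.19% of tested genes and 0.222% of promoters), a stricter form in 0 and a looser form in 8 (2.28%, against 1.89% of tested genes). With the 50 bases after the start the looser form was found in 12 (3.42%, against 2.24% of tested genes), and the other counts of list members did not change. The shares of the classical and looser forms lay near those of tested genes, so they are no result about the 456 genes. The 1 match was in Ltbp3, which encodes a TGF-beta binding protein and was at 35.3 and 23 CPM with vitamin D3 against 1.11 to 1.82 CPM fresh. Below are the minus-strand windows of Ctsd (chr7:142387828-142388077) and Gla (chrX:134601006-134601255), and the plus-strand windows of Gclm (chr3:122245307-122245556, a subunit of the enzyme that begins glutathione synthesis), Hmgcs1 (chr13:119690101-119690350, an early enzyme of cholesterol synthesis) and Ltbp3 (chr19:5740650-5740899).
Ctsd: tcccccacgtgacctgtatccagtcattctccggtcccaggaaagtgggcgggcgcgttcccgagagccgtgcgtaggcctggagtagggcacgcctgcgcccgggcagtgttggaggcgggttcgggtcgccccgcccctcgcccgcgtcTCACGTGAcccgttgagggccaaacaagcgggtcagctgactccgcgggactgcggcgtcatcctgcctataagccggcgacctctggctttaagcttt
Gla: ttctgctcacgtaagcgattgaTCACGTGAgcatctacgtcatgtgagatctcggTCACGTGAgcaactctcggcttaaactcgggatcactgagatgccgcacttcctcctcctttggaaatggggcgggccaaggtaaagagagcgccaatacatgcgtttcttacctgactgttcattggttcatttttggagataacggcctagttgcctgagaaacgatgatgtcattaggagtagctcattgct
Gclm: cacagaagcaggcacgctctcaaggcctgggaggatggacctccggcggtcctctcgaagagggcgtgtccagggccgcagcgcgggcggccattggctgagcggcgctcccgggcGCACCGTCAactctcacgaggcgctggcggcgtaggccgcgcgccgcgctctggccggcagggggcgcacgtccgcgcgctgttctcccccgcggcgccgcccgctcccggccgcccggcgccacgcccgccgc
Hmgcs1: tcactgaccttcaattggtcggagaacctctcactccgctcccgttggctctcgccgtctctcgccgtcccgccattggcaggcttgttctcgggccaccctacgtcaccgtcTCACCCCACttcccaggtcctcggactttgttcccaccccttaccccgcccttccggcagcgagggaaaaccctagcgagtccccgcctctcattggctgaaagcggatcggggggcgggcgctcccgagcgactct
Ltbp3: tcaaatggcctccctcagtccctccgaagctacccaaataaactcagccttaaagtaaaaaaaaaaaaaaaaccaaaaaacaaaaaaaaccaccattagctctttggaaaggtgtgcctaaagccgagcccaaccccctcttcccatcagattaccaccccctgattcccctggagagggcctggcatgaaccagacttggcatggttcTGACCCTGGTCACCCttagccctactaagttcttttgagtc

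Outside the haemoglobins, the genes furthest below both ages were near silent in treated cells. Cish, a STAT5-induced inhibitor of cytokine signalling, was at 0.541 and 0.632 CPM against 41.8 to 64.4 CPM fresh and 0.383 and 1.13 CPM untreated. Ffar2, a receptor for short-chain fatty acids, was at 0.0984 and 0.351 CPM against 20 to 26 CPM fresh and 0.985 and 0.972 CPM untreated. Tppp3, which binds tubulin, was at 0.639 and 0.913 CPM against 92.5 to 194.7 CPM fresh and 1.2 and 1.62 CPM untreated. Ffar2 was lower than in untreated culture (edgeR adjusted p = 0.00786), and Cish and Tppp3 did not pass that test. Klf4, a transcription factor gene of macrophages, was at 23.6 and 35.2 CPM against 166.2 to 260.3 CPM fresh and 67.3 and 82.3 CPM untreated.

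Held genes kept close to the fresh level. Lta4h, which makes leukotriene B4, was at 146.5 and 159.3 CPM with vitamin D3 and at 144.5 to 161.2 CPM in fresh cells. Aco1, an iron-sensing regulator, was at 133.7 and 149.7 CPM against 143.6 to 155.9 CPM. Tgfb1 was at 457.5 and 529.9 CPM against 415.8 to 484.7 CPM. Ctss, the gene of cathepsin S, was at 3161 and 2508 CPM against 2650 to 3179 CPM. Each of these had at least 1 treated library within the fresh range. Scaled by library totals alone, Lta4h, Aco1 and Ctss passed the test as lower over both ages and stayed held. Their log2 differences were then -0.29, -0.36 and -0.29 (edgeR adjusted p = 0.0326, 0.00401 and 0.0402). Jund, an AP-1 subunit gene, was held at 324.7 and 360.3 CPM against 269.9 to 384.4 CPM, while untreated culture was lower at 142.1 and 191.3 CPM (2.06-fold; edgeR adjusted p = 0.000419). Jund thus also counted as regained upward, a class it lost in 5 of the 15 alternative fits that include untreated culture.

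Cell cycle, immediate early and MHC class II genes were mostly below both ages, where 19.3% of all genes lay and 20.0% lay above. Of 30 cell cycle genes 24 were below, 0 above and 3 held (7 held without vitamin D3 replicate 3), with a median log2 difference of -2. Untreated culture had 28 of them below, with a median of -2.35. Of all genes, 15.3% were below and 15.9% above both ages in untreated culture. Ccnb2, a cyclin of mitosis, was at 4.87 and 2.46 CPM against 22.5 to 35 CPM fresh and 2.74 and 1.78 CPM untreated, while Pcna and Mcm3, genes of DNA replication, were held. Of 22 immediate early genes 14 were below and 2 above, and untreated culture had 17 below and 1 above. Fos was at 23.5 and 31.8 CPM against 219.1 to 512.4 CPM fresh and 42.3 and 28.9 CPM untreated. Atf3 was above both ages at 302.8 and 258.5 CPM against 14.6 to 22.4 CPM fresh, and untreated culture was alike at 325 and 245.9 CPM. Of 12 genes of antigen presentation on MHC class II, 4 were lower and 0 higher with vitamin D3 than in untreated culture. Of all genes 5.63% were lower and 5.0% higher in that comparison. Against fresh cells 8 were below both ages and 0 above (median -3.17), and untreated culture had 3 below. Without 4-week replicate 1 the treated count was 5. The distance differed much with the age of the fresh cells for some members. Cd74, the invariant chain, was at 2860 and 2281 CPM at 10 weeks, 238 and 53.2 CPM at 4 weeks, 365.2 and 131.7 CPM untreated and 175.6 and 73.5 CPM with vitamin D3. The treated libraries of Cd74 overlapped those of 4 weeks, with a log2 difference of -4.36 against 10 weeks and -0.22 against 4 weeks (edgeR adjusted p = 0.000235 and 0.789). H2-Aa, a class II chain gene, gave -5.21 and -0.94 (edgeR adjusted p = 6.78e-05 and 0.231). Cd74 and H2-Aa were chosen after their values were seen. H2-DMa, which loads peptides on class II, was at 30.5 and 28.5 CPM against 229.3 to 324.7 CPM fresh and 59 and 43.5 CPM untreated. H2-DMa was lower than fresh cells of both ages to a similar extent. Of 23 interferon-stimulated genes 9 were below, 1 above and 13 in neither class, with 3 below in untreated culture. Without vitamin D3 replicate 1 or without 4-week replicate 1, 5 of these 23 were below. Of 25 genes of fatty acid uptake, storage and oxidation 9 were above and 10 below, and untreated culture had 6 above and 10 below. Dgat2, the triglyceride synthesis gene, was at 3.34 and 3.16 CPM against 63.1 to 92.1 CPM fresh and 2.74 and 2.67 CPM untreated. C5ar1, the receptor of complement C5a, was at 11.1 and 7.31 CPM against 350.3 to 403.4 CPM fresh and 14.3 and 7.05 CPM untreated. In bulk RNA, fewer cells of a type and less RNA per cell cannot be told apart.

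**Figure D4:**
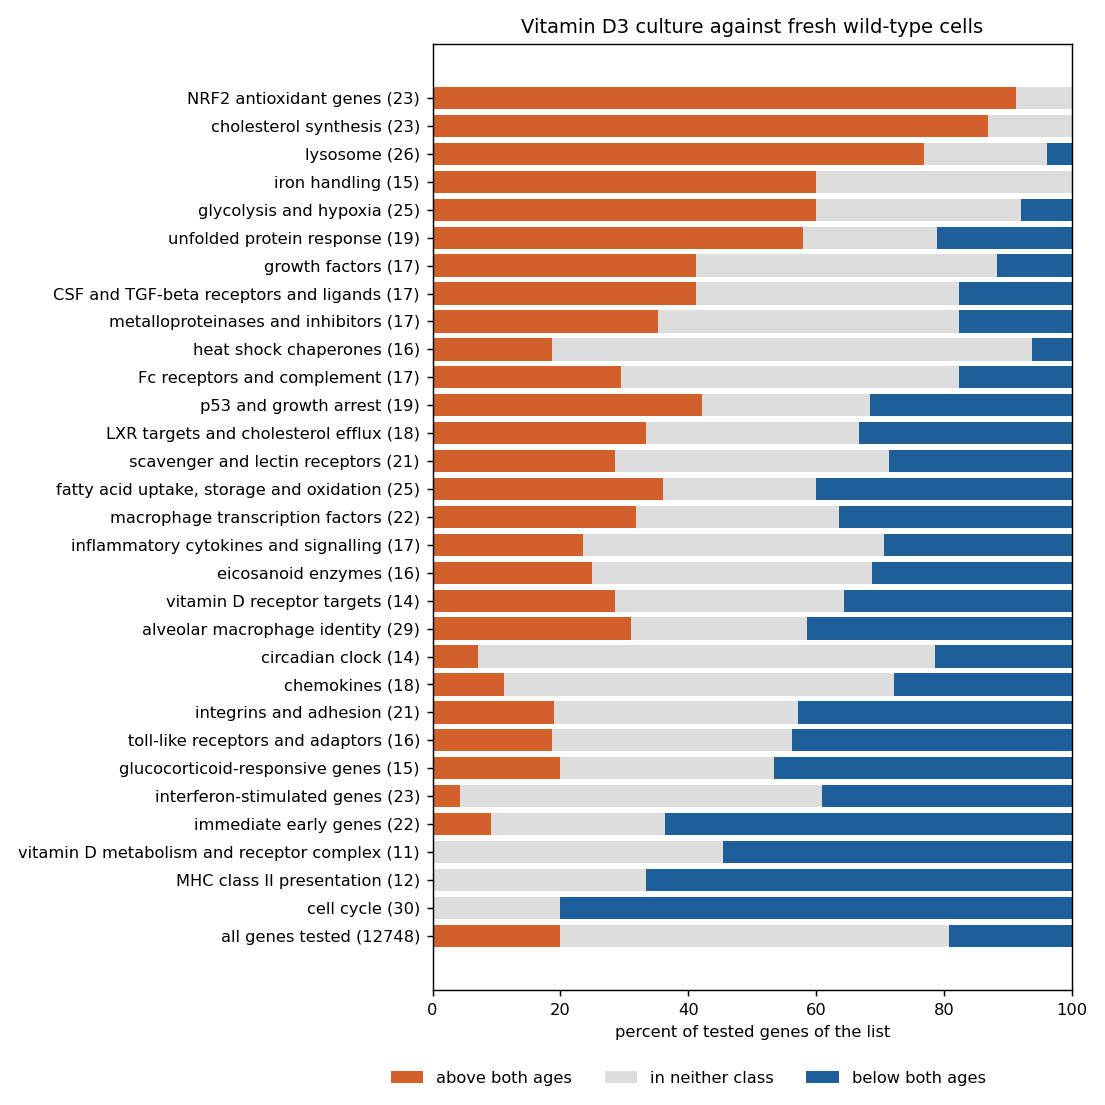
Percent of the tested genes of each of 30 function lists (number in brackets) that were above both ages, below both ages or in neither class, with all 12748 genes at the bottom. NRF2, cholesterol synthesis and lysosome genes are mostly above, and cell cycle, MHC class II and immediate early genes mostly below, against 20.0% and 19.3% of all genes.

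Markers of other cells moved with some of these results. The summed level of 11 erythroid transcripts was 12.8 to 15.7 CPM with vitamin D3, 81.2 to 171.9 CPM at 10 weeks and 1355 to 3187 CPM at 4 weeks. Untreated culture was alike at 11.9 to 15.8 CPM. Hba-a2, Hbb-b1, Hbb-b2 and Slc4a1 were at 0 in the treated cells and in untreated culture. Haemoglobin genes are among the 10 named as furthest below both ages. Hba-a2 was at least 2190-fold lower and Hbb-b1 at least 1020-fold. Their counts are uncertain, since copies of these genes are alike. Markers of dendritic cells summed to 30.1 to 33.2 CPM against 47.2 to 126 CPM fresh and 37.7 to 43.1 CPM untreated. Of 12 tested 7 were below both ages (19.3% of all genes), and 5 were so in untreated culture (15.3% of all genes). These stand beside the fall in MHC class II genes. The part of dendritic cells in that result was not tested. Epithelial markers summed to 101.7 to 130.1 CPM with vitamin D3, 60.2 to 62.6 CPM in untreated culture and 148.9 to 343.5 CPM fresh. Sums of interstitial macrophage and of endothelial and stromal markers were higher in treated than in fresh cells, at 475.7 to 503.6 against 96.8 to 162.5 CPM and 435.4 to 476.8 against 112 to 132.5 CPM. Trem2 gave most of the first (414 and 403.3 CPM) and Vwf most of the second (460.9 and 415 CPM). Untreated culture gave sums of 484.5 to 549 CPM for interstitial macrophage and 320.9 to 345.7 CPM for endothelial and stromal markers. Lyve1 and Tmem119, and Kdr, Emcn, Pdgfrb and Lum, were at 0 in treated cells. Of these Lyve1, Tmem119, Emcn and Lum were also at 0 in untreated culture. Emcn, Pdgfrb and Lum were at 0 in fresh cells of both ages too. T and NK cell markers summed to 159 to 248.5 CPM against 189.4 to 267.7 CPM fresh, neutrophil and monocyte markers to 73 to 75.7 against 106.9 to 126.8 CPM, and B cell markers to 1.03 to 1.62 against 2.22 to 9.57 CPM. In untreated culture these sums were, in the same order, 236.3 to 273.4, 87.7 to 87.9 and 1.04 to 1.7 CPM.

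**Figure D5:**
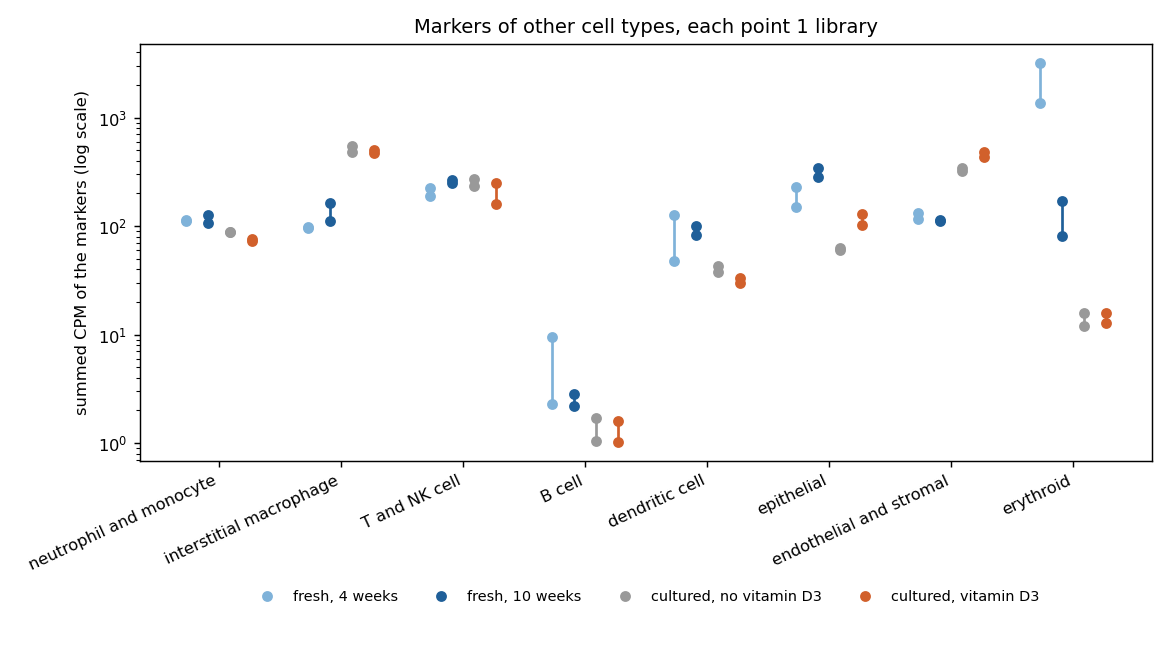
Summed CPM of the markers of 8 other cell types in each library, on a log axis, for fresh cells of 4 and 10 weeks and both cultures. Erythroid transcripts were lowest in culture and highest at 4 weeks, at 1355 to 3187 CPM.

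Fresh cells of the 2 ages differed in 269 genes (2.11%), 179 (1.40%) higher at 10 weeks and 90 (0.706%) higher at 4 weeks. By log2 distance, with no test, treated cells lay nearer the 4-week level for 125 of the 179 and for 55 of the 90. They lay between the ages for 57 and 26, were above both ages for 24 and 26, and below both for 62 and 19. Of all genes tested 20.0% were above and 19.3% below both ages. Untreated culture was not placed in this way, so a part of vitamin D3 in it was not tested. The 10-week pair also differs in sex, by Xist and Ddx3y. Both 4-week libraries share the same series of title numbers, while the 10-week pair is split between the series. Age and series thus cannot be fully told apart.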

How the data were processed

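RNA-seq of mouse alveolar macrophages was used from 12 libraries in 6 groups of 2. The authors deposited raw counts per gene for 23413 genes, and a table of log2(CPM + 1) for 10631 genes; the submitters' processing notes name TopHat2, edgeR and build mm9. No counting tool or strand setting is given there. The deposited log2 values served only to check labels: the wild-type 10-week columns matched the genotype labels for 10631 of 10631 genes within 0.05 and the description codes for 1833. No column was left unmapped.

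In R 4.3.3, counts were tested by edgeR 4.0.16 (quasi-likelihood F test) with TMM scaling and filterByExpr (minimum count 10, minimum total 15), which left 12748 genes. All 12 libraries entered 1 fit, which left 6 residual degrees of freedom, and p-values were adjusted over all genes by the Benjamini-Hochberg method at 0.05. Intervals are 95% from the SE of the log2 fold change. A rank test of 2 libraries against 4 could not give a two-sided p under 0.0667. Replicates differed by more than sampling noise (chi-square per degree of freedom 9.98 to 52.1). The code was tested on simulated data.

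The members, the 38 gene lists and the tests were chosen with earlier results of these data known. Named are Vdr and Cyp24a1, then genes with at least 5 CPM in the higher group: 10 above and 10 below both ages, 8 regained each way, 8 above and 8 below both ages and untreated culture, by largest log2 difference, then up to 4 members of each list, 2 held ones, the 3 most abundant markers of each other cell type and 13 markers of alveolar macrophages. Spp1, Ctsa, Gclm, Cd14, Thbd, G0s2, Cdkn1a, Xist and Ddx3y fall outside the rule and were chosen after their values were seen, as were the genes the text marks so. Which group counts as the higher one was settled when the rule was coded, after a first look at the calls. Alternatives were DESeq2 1.42.0, its size factors, library totals, leaving out the filter or asking for 5 CPM in 2 libraries, fitting only the treated and fresh wild-type libraries, the exchange of the pair in conflict, a block, a 1.5-fold tolerance and leaving out libraries. Those leaving out untreated libraries, and those for genes below both ages and untreated culture, were added after seeing the data. The promoter window was shortened to 250 bases after a first search with the 50 bases past the start, and both results are given. Values of 2 genes are not reported here.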

Additional observations from a re-analysis of the deposited data

Results flagged for a closer look

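The 2 cultures lay on opposite sides of both fresh ages for 9 genes, which fall outside the naming rule and were singled out after their values were seen. In 6 of them (0.0471% of genes tested) treated cells were above and untreated cells below. The log2 difference of vitamin D3 from untreated culture was 1.70 for Arsb, 1.30 for Slc25a28, 1.95 for Cenpa, 2.39 for Klf9, 1.60 for Irf2bpl and 8.21 for Klk13. Klk13 had 0 counts in untreated culture, so its fitted value is no bound: it was at least 25.1-fold higher with vitamin D3, at 3.59 and 0.843 CPM. In 3 genes (0.0235%) treated cells were below and untreated above, with log2 differences of -1.20 for Camk1, -1.01 for Itgb5 and -1.67 for Kynu. Kynu, an enzyme of tryptophan breakdown, was at 26.1 and 33.3 CPM with vitamin D3, 55.9 to 57.6 CPM fresh and 86.4 and 102.5 CPM untreated. The difference between the cultures passed the test of edgeR for all 9. Many of the departures from fresh cells were small, and Arsb, Klk13, Irf2bpl, Itgb5, Klf9, Cenpa, Slc25a28 and Camk1 lost their class against fresh cells in 9, 10, 8, 6, 4, 3, 1 and 1 of the 16 alternative fits (15 for Klk13).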

How the results depend on the processing

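Across 16 alternative fits the counts of genes past the threshold against 10 weeks, 4 weeks and both ages stayed within 1.5 times their value. The number altered in untreated culture did so in the 15 fits that include that culture. With libraries scaled by totals alone, genes above both ages numbered 1410 and those below 3951, in place of 2551 and 2459. With a 1.5-fold tolerance 2187 genes were held, in place of 5715. Leaving out each library in turn gave 1974 to 2636 genes above both ages, 1817 to 2452 below and 5028 to 5815 held. Against 10 weeks it gave 5008 to 6614 called genes, against 4 weeks 4453 to 6096, against both 5226 to 6909, and 3041 to 3988 altered in untreated culture. It gave 47 to 148 regained genes, 240 to 428 above both ages and untreated culture, and 168 to 475 below them. Of 4505 recomputed values of named genes 154 changed their side of the threshold or their sign. The sign turned under library totals for Csf2ra (-0.27), Itgb1 (-0.015), Cd9 (-0.024) and Sgk1 (-0.012), as log2 differences over both ages; the cause was not tested. The labelled replicate numbers of treated and fresh groups share only number 1 and pair no libraries. The series of title numbers, each with 1 treated and 1 10-week library, was used as a replicate block and gave 7108 called genes over both ages, 2666 above, 2541 below and 140 regained, and changed no count by over 1.5 times. Depth limits genes of few counts, for which ratios carry counting error only.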
